A study of Mus musculus with 26 samples.

Results

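Lost regions are stretches of the mouse genome to which peaks of 5-hydroxymethylcytosine (5hmC) in RNA were mapped. They had a peak in every wild-type embryonic stem cell library and in no library of Tet-deficient stem cells or of embryoid bodies. They were chosen by merging the intervals of 9 peak lists wherever these overlapped by 1 bp or more. A merged region was kept when all 3 WT ESC lists had a peak in it and none of the 3 TKO ESC and 3 WT EB lists did. This gave 405 lost regions of 15383 regions in all, a share of 2.63%. Of the 1536 regions present in all 3 WT ESC lists, the lost regions made up 26.4%. A further 436 lacked a WT EB peak only, 90 lacked a TKO ESC peak only, and 605 stayed, with a peak in at least 1 TKO ESC and at least 1 WT EB list. Since presence in these 9 lists selected the members, the contrast between WT ESC and the other groups is a description here and was not tested.

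The study mapped 5hmC in RNA by hMeRIP-seq, in which total RNA is sonicated into short pieces, precipitated with an antibody against 5hmC and sequenced beside an input without antibody. WT ESC are wild-type mouse stem cells grown on gelatin in serum with leukaemia inhibitory factor (LIF). TKO ESC were grown in the same way and are a triple knockout that lacks Tet1, Tet2 and Tet3. WT EB are embryoid bodies, made by keeping WT ESC for 4 days in their medium with LIF left out. Tet2-KI ESC carry a Flag, HA and Twin-Strep tag at the end of the endogenous Tet2 gene, and Tet2dRBD-KI ESC carry the same tag on a Tet2 that lacks its RNA-binding domain. Both knock-in lines were made from wild-type stem cells with Cas9 nickase and grown from picked clones, so a difference between these lines and a difference between clones cannot be told apart. Each of the first 3 groups has 3 IP libraries and each knock-in group has 2. The sample labels do not say whether replicates came from separate cultures, while the study describes its hMeRIP-seq data as independent experiments. A p-value below measures the spread between these libraries.

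TET proteins are dioxygenases that oxidise 5-methylcytosine to 5hmC, in DNA and also in RNA, and Tet2 can reach RNA through its own RNA-binding domain and through protein partners. Introns are removed from the primary transcript during splicing, so a peak deep within an intron comes from RNA that is mostly nuclear and short-lived. Simple tandem repeats, short units such as GA or CA copied in a row, are abundant in mouse introns and intergenic DNA and rare in coding sequence.

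The sequences below are the 200 bp intervals around the highest WT ESC summit, read from NCBIM37, the assembly behind mm9, in 5′ to 3′ direction on the strand of the gene, or on the + strand between genes. Capitals mark every GAGAGA or GACAGA and their reverse complements TCTCTC and TCTGTC. Both words can share bases within a longer run. The words were picked after the most frequent 6-letter words of the lost regions had been seen. The first 3 intervals show lost regions of high fold enrichment with at most 1 such word, of which the Med13l interval lies close to a stayed region shown further down.
Trp53 intron, lost, chr11:69394180-69394379, + strand: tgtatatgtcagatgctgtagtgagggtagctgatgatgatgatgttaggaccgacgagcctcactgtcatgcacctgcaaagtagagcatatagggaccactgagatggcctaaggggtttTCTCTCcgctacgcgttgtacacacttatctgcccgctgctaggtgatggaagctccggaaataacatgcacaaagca
Erc1 intron, lost, chr6:119712879-119713078, - strand: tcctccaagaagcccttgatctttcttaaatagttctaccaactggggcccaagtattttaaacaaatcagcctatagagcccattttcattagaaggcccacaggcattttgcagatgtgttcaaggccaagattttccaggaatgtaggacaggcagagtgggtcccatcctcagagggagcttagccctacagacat
Med13l intron, lost, chr5:119074927-119075126, + strand: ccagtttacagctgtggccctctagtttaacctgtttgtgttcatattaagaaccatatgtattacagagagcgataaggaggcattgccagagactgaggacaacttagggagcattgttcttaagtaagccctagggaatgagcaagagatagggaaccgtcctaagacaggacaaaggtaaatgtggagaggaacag

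The next 5 intervals are shown for their base composition and rank. In Unc5c the gene strand held pyrimidine runs, in Plxdc2 it held the purine complement, and the 3 intergenic intervals are among those of the highest rank. The Unc5c, Plxdc2 and X chromosome intervals hold a perfect tandem repeat, of 19, 27 and 22 nt, and the intergenic intervals on chromosomes 5 and 13 hold none as defined further on.
Unc5c intron, lost, chr3:141264570-141264769, + strand: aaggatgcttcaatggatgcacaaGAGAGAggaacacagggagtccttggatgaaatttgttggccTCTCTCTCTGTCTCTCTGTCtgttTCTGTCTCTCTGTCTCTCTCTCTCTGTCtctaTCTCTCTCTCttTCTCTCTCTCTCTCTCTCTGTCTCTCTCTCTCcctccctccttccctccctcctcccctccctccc
Plxdc2 intron, lost, chr2:16458668-16458867, + strand: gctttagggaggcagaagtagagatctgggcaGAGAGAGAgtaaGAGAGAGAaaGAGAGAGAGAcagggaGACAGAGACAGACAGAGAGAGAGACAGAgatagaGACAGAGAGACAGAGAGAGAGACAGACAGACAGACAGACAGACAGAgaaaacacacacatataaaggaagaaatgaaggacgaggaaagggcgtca
Intergenic, lost, chr5:108493240-108493439, + strand: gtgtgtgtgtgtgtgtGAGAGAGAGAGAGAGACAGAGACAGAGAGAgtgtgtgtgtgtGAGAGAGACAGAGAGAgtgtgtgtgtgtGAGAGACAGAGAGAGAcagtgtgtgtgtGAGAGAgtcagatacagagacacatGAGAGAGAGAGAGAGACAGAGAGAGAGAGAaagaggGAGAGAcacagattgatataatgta
Intergenic, lost, chr13:19269031-19269230, + strand: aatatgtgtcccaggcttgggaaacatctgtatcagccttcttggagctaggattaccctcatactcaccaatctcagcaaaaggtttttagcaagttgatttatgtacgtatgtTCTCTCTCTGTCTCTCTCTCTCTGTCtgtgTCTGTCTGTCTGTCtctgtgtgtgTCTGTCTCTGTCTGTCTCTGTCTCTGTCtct
Intergenic, lost, chrX:151798521-151798720, + strand: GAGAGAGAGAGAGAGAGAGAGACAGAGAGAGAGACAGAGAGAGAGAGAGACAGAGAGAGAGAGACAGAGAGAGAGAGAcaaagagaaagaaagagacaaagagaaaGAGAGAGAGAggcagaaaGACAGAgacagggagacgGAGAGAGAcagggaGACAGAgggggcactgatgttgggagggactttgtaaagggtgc

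The last 3 intervals are introns among the 5 stayed regions with the highest lowest fold enrichment. They hold repeated units too.
Tmem189 and Ube2v1 intron, stayed, chr2:167440307-167440506, - strand: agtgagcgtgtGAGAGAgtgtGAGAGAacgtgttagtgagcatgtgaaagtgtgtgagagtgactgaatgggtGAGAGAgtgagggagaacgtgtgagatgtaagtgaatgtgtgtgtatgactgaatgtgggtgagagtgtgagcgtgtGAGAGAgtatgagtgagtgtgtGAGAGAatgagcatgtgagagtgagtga
Calm2 intron, stayed, chr17:87837185-87837384, - strand: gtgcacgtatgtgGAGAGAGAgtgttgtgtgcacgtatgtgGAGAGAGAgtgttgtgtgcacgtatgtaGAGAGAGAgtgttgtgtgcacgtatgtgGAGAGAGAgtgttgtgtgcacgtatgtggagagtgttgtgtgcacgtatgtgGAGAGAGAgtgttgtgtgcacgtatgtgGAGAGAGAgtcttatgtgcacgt
Med13l intron, stayed, chr5:119075429-119075628, + strand: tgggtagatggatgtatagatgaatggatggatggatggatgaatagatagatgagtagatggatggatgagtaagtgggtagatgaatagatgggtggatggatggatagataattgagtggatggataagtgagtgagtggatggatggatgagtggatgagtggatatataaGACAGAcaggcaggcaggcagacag

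The lost regions lay on chromosomes 1 to 19 and X, and their median length was 236 bp, against 269 bp for stayed regions. Only 30 of the 405 lay within 1000 bp of a TKO ESC or WT EB peak, and 375 remained when such regions were taken out. Their number depended on the lists that set the rule. The WT ESC lists were the longer ones, with 4395, 7113 and 6499 peaks in replicates 1 to 3. The TKO ESC lists held 964, 4323 and 3262 peaks, and the WT EB lists 498, 1831 and 3532. With every list shortened to its 498 highest peaks, 14 regions met the rule, a share of 14.9% of the regions then present in all 3 WT ESC lists. Leaving out WT ESC replicate 1, 2 or 3 raised the number to 1075, 819 or 777. Within the libraries whose descriptions begin with 1703 (replicates 2 and 3 of the 3 groups) it was 1179, or 39.3% of the regions present in both WT ESC lists. Leaving out 1 TKO ESC or WT EB list gave between 423 and 544. Fewer transcripts and less 5hmC per transcript cannot be told apart here, since the lists give no value, for IP or input, of a region without a peak. A missing peak means that no peak passed the threshold of the caller.

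The nearest regions outside the rule were close to the members in WT ESC fold enrichment. A single peak in 1 of the 6 TKO ESC and WT EB lists kept 339 regions out. Of these, 140 were listed in TKO ESC replicate 3, 82 in TKO ESC replicate 2 and 43 in TKO ESC replicate 1, while 18, 37 and 19 were listed in WT EB replicates 1, 2 and 3. In WT ESC replicates 1 to 3 they had medians of 6.22, 6.07 and 5.91, close to the 6.25, 6.07 and 6.21 of the lost regions in fold enrichment over input. The peaks that kept them out had median fold enrichments from 4.19 in WT EB replicate 1 to 6.54 in WT EB replicate 2.

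The targeted genes gave little to check. Tet1 had 2 regions in the 9 lists, and TKO ESC replicates 1, 2 and 3 listed peaks in 1, 2 and 1 of them. Tet2 had 1 region, listed in WT ESC replicate 2 alone, and Tet3 had none. A peak list does not measure the expression of these genes, and none of the 3 held a lost region. Among 10 stem cell markers, 4 had any WT ESC peak (Sox2, Esrrb, Tdgf1 and Lin28a), and among 10 early differentiation markers 2 did (Gata6 and Nes). No marker of either list held a lost region.

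To describe single members, regions were ranked by the lowest of their 3 WT ESC fold enrichments, the ratio of IP over input at the summit that the authors' peak caller gave. Of the first 20, 19 lay in introns of coding genes and 1 between genes. The first was in intron 1 of Trp53 (chr11:69394167-69394381), the gene of the tumour suppressor p53. Its fold enrichment was 14.4, 11.0 and 12.9 in WT ESC replicates 1 to 3, a mean of 12.8 ± 1.70 (SD, n = 3). The nearest TKO ESC or WT EB peak was 100811 bp away, and Trp53 had no other region in the 9 lists. Of the knock-in lists, Tet2-KI ESC replicate 1 alone had a peak there.

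Erc1, which encodes a scaffold protein of the cell cortex and of presynaptic active zones, held the second in intron 6 (chr6:119712868-119713078). Its values were 11.0, 18.8 and 13.2, a mean of 14.3 ± 4.05 (SD, n = 3). Both Tet2-KI ESC lists and neither Tet2dRBD-KI ESC list had a peak there. Fto, whose product removes methyl groups from N6-methyladenosine and related bases in RNA, came next with intron 8 (chr8:94111251-94111458), with 11.9, 16.3 and 10.4. Its summit was 64556 bp from the nearest splice site. Epha4, a receptor for ephrins that guides axons, followed with a region in intron 3 (chr1:77464727-77464963) and values of 10.2, 14.7 and 14. These 4 were the only lost regions with a fold enrichment of 10 or more in all 3 WT ESC libraries, whereas 99 stayed regions had one.

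The next ranks went to introns of BC030336, Med13l, Zfp704 and Adat1. Med13l encodes a subunit of the Mediator kinase module and Adat1 a tRNA adenosine deaminase. The Med13l lost region (chr5:119074927-119075146) had fold enrichments of 9.51, 14.7 and 10.2. A stayed region lay 273 bp downstream in the same intron (chr5:119075419-119075641), with 31.0, 23.0 and 24.7 in the same libraries. So this intron carried one of the 5 highest ranking stayed regions beside one of the highest ranking lost ones. The Zfp704 region held a perfect repeat of 54 nt, and the Adat1 region had a TKO ESC or WT EB peak 61 bp away. By contrast, the Trp53 and Epha4 regions had neither.

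**Figure D1:**
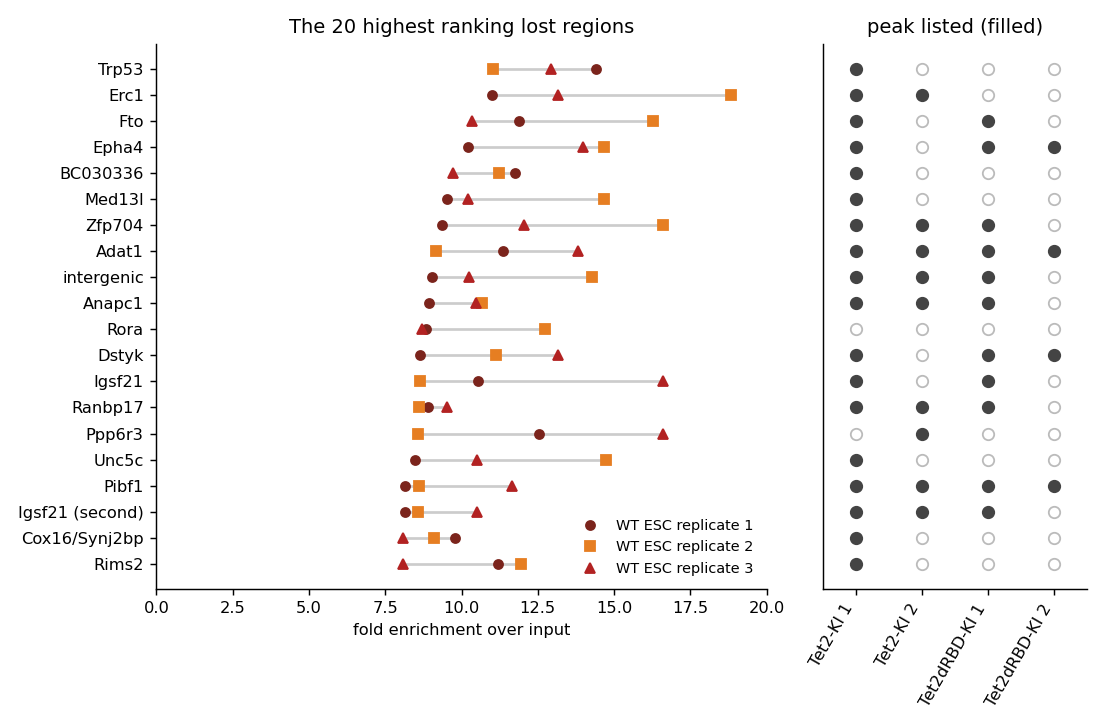
Fold enrichment over input of the 20 highest ranking lost regions in WT ESC replicates 1, 2 and 3 (left, symbols, with a grey line from the lowest to the highest value) and their presence in the 4 knock-in lists (right, filled where a peak is listed). Values of 1 region spread widely, as for Erc1 between 11.0 and 18.8, and the regions with a peak numbered 18 and 9 in Tet2-KI ESC replicates 1 and 2 and 11 and 4 in Tet2dRBD-KI ESC replicates 1 and 2.

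Further genes among the first 20 were Anapc1 (the largest subunit of the anaphase-promoting complex), Rora (a nuclear receptor), Dstyk (a protein kinase), Ranbp17 (a nuclear transport receptor), Ppp6r3 (a regulatory subunit of protein phosphatase 6), Unc5c (a netrin receptor), Pibf1 (a protein of centriolar satellites), Rims2 (a protein of presynaptic active zones) and the overlapping genes Cox16 and Synj2bp. Igsf21, a synaptic adhesion protein, held 2 of the 20. Their lowest fold enrichments ran from 8.94 in Anapc1 down to 8.09 in Rims2.

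Lost regions in exons were few and ranked lower. The first was in the 3′ UTR of Tmem201 (9.10, 7.77 and 9.07), a protein of the inner nuclear membrane, with a peak in all 4 knock-in lists. Tmtc2 (5′ UTR), Gtpbp6 (coding sequence), Fbxl19 (3′ UTR) and Ubac1 (5′ UTR) followed. The Fbxl19 region ran from 6.43 in replicate 2 to 14.2 in replicate 1, while Ubac1 stayed between 5.96 and 7.45.

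Gene by gene, the 229 lost regions in coding genes fell in 219 genes, counting overlapping genes separately. Coding genes with a region in all 3 WT ESC lists numbered 824, and 26.6% of them held a lost region and 392, or 47.6%, a stayed one. For 103 of the 219 genes no region of the gene had any TKO ESC or WT EB peak, and for 55 the lost region was the only region in the 9 lists. In contrast, 24 of the 219 also held a stayed region.

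In 13 genes there were 2 or more lost regions. St6galnac3, a sialyltransferase, was among those with 3, with mean fold enrichments of 5.03, 4.59 and 8.82. The 2 regions of Pibf1 lay close together in intron 5, at chr14:99519159-99519381 and chr14:99519525-99519732. The first had no knock-in peak and the second had a peak in all 4 knock-in lists. Polr2a, the largest subunit of RNA polymerase II, held 2 in its coding sequence, with means of 2.16 ± 0.388 and 2.45 ± 0.691 (SD, n = 3), near the low end of all lost regions. Zfp704, Igsf21, Rims2, Lama1, Stx6, Csgalnact1 and Cux2 held 2 each. A further pair lay where the annotation overlaps Ctbp2 with a Fgfr2 model of 3009 kb, so which of these transcripts was measured cannot be told apart.

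The 12 lists of genes with roles in stem cells, chromatin, RNA and signalling together held 486 annotated genes, of which 15 had a lost and 44 a stayed region. Of all 22238 annotated coding genes, 219 had a lost and 392 a stayed region. Pluripotency factors gave 1 of 27, Rif1, a protein of replication timing and telomeres. The Rif1 region, in intron 7, had fold enrichments of 11.0, 4.40 and 7.55. No other gene of that list had a region in all 3 WT ESC lists.

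Chromatin regulators with a lost region were Jarid2, Arid1b, Mbd3 and Suv39h1. Jarid2 is a cofactor of Polycomb repressive complex 2 and was 1 of 4 Polycomb genes with a region in all 3 WT ESC lists. Its lost region, in intron 2, had 7.17, 5.16 and 8.29. A coding sequence region of Jarid2 was listed in all 3 WT ESC libraries and in 1 TKO ESC library, and so fell outside the rule. Arid1b, a subunit of the BAF remodelling complex, had 6.33, 6.73 and 8.74 in intron 4. A neighbouring region of the same gene (chr17:5174618-5174849) was listed in all 3 WT ESC and all 3 TKO ESC libraries and in no WT EB library. Mbd3, a subunit of the NuRD deacetylase complex, held its lost region in the 5′ UTR, with 3.16, 3.54 and 3.78, which replicated closely at a low level. Of 11 remodelling genes with a region in all 3 WT ESC lists, 2 held a lost and 8 a stayed region. These shares were 26.6% and 47.6% over all coding genes with such a region. Suv39h1, a histone H3 lysine 9 methyltransferase, had 4.77, 4.49 and 6.98 in intron 3. DNA methylation and demethylation genes held no lost region and 1 stayed region, in Tet1.

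Fto was 1 of 4 RNA methylation genes with a region in all 3 WT ESC lists, and the other three, Mettl16, Ythdc1 and Zc3h13, held stayed regions. Likewise, Trp53 stood beside Mdm4, Mdc1 and Blm, which held stayed regions. Among splicing factors and RNA-binding proteins, 20 had a region in all 3 WT ESC lists. Only Nono, a paraspeckle protein, held a lost region (7.58, 5.07 and 5.39, in intron 8), while 15 held a stayed one. Over all genes with a region in all 3 WT ESC lists these shares were 26.6% and 47.6%. Translation factors and ribosomal genes had 5 genes with stayed regions and none with a lost one.

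Axon guidance and adhesion genes gave 4 of 11 with a lost region and 2 with a stayed one. Of all coding genes with a region in all 3 WT ESC lists, 26.6% held a lost and 47.6% a stayed region. The 4 with a lost region were Epha4, Unc5c, Plxna4 (a semaphorin receptor) and Ephb2 (an ephrin receptor). All these groups are small, and their counts were not tested.

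Lost regions lay between genes more often, and in coding sequence less often, than stayed regions. Intergenic summits made up 163 of 405 lost regions, 40.2% (95% exact Clopper-Pearson interval 35.4 to 45.2), and 72 of 605 stayed regions, 11.9% (9.43 to 14.8). The difference was 28.3 percentage points (95% Newcombe interval 22.9 to 33.7). Coding sequence held 19 lost regions, 4.69% (2.85 to 7.23), and 198 stayed regions, 32.7% (29.0 to 36.6). Over all 15383 regions of the 9 lists, 21.0% were intergenic and 15.9% lay in coding sequence, so the lost regions departed from the whole in one direction and the stayed regions in the other. These intervals, and the others below, cover counting error only, and regions of 1 set of libraries are not independent replicates. The intergenic share was 34.4% in the regions lacking a TKO ESC peak only and 31.4% in those lacking a WT EB peak only, both nearer to the lost than to the stayed share. With lists of equal length, where 14 lost regions remained, the intergenic difference was 8.63 points, and its interval, -5.51 to 34.5 points, includes 0.

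Introns held nearly the same share of both sets, 45.7% of lost and 46.4% of stayed regions. Within coding genes, however, 185 of 229 lost regions were intronic, 80.8%, against 281 of 515 stayed regions, 54.6%. This share was 67.9% in regions lacking a TKO ESC peak only and 82.9% in those lacking a WT EB peak only, the latter above that of the lost regions. With lists of equal length the difference was 26.4 points, and its interval, -3.14 to 41.9 points, includes 0. The 5′ UTR held 18 lost regions, 4.44% (2.66 to 6.93), and 2.64% (1.52 to 4.26) of the stayed regions, a difference whose interval, -0.479 to 4.47 points, includes 0. Also 7 lost regions lay in 3′ UTRs and 13 in noncoding genes.

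**Figure D2:**
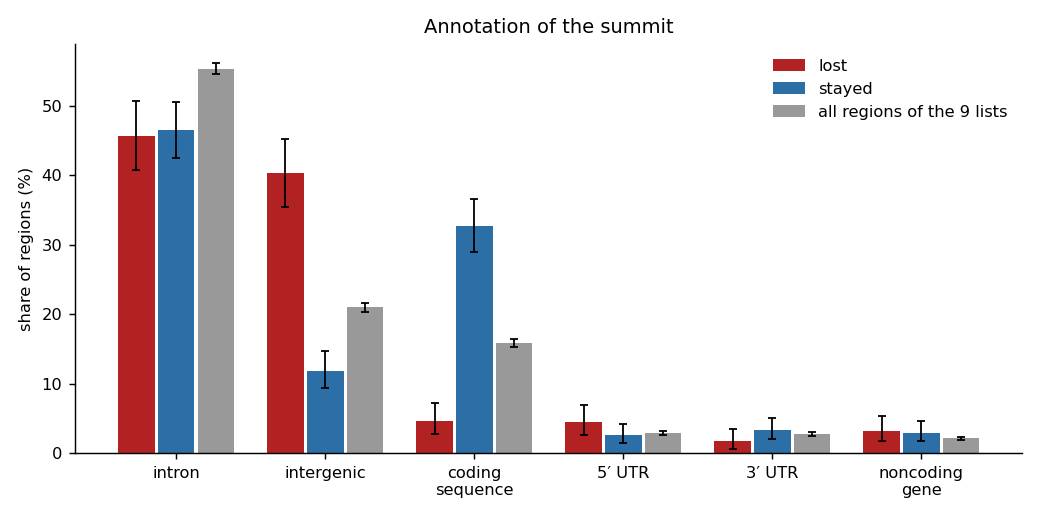
Share of lost regions, stayed regions and all regions of the 9 lists by the annotation of the summit, in percent, with 95% exact Clopper-Pearson intervals for counting error. Intergenic summits made up 40.2% of the lost and 11.9% of the stayed regions, while coding sequence made up 4.69% and 32.7%.

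Intronic lost regions lay deeper than stayed ones, in longer introns of longer genes. The median distance of the summit to the nearest annotated splice site was 3976 bp in 184 lost regions and 1232 bp in 276 stayed regions with an annotated intron. Within 500 bp of a splice site lay 21.2% (15.5 to 27.8) of the lost and 34.8% (29.2 to 40.7) of the stayed regions. The median intron was 23.4 kb long for lost and 7.22 kb for stayed regions, and the median gene 155 kb and 64.8 kb. This depth was not particular to the lost regions. Intronic regions lacking a TKO ESC peak only had a median distance of 4858.5 bp and a median intron of 34.4 kb, and those lacking a WT EB peak only had 5016 bp and 26.3 kb. First introns held 26.1% of the lost and 20.3% of the stayed intronic regions, and the interval of that difference, -1.96 to 13.8 points, includes 0.

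A perfect tandem repeat, a run of at least 18 nt of a unit of 1 to 4 nt (20 nt for units of 4), was in 127 of 405 lost intervals, 31.4% (26.9 to 36.1). It was in 56 of 603 stayed intervals on the reference, 9.29% (7.09 to 11.9), and in 17.7% of all regions of the 9 lists. Regions lacking a TKO ESC peak only were at 27.8% and those lacking a WT EB peak only at 27.5%, within the interval of the lost share. Few units made up nearly all of them. Counting both strands together, AG repeats were in 94 lost regions, ACAG repeats in 32 and AC repeats in 28, and no other unit was in more than 2. In the stayed set AG repeats were in 22 regions and AC and ACAG repeats in 10 each. The longest repeat of a lost interval had a median of 32 nt and reached 102 nt.

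Position and repeats went together, and the repeat difference was also seen within intergenic and within intronic regions. Among intergenic regions, 83 of 163 lost and 25 of 70 stayed intervals held a repeat, 50.9% and 35.7%. Among intronic regions the shares were 22.7% and 8.90%, and none of 44 exonic lost regions held one, which allows a share of up to 8.04%, against 6 of 234 exonic stayed regions, 2.56%. Among regions without a repeat, 28.8% of the lost and 8.23% of the stayed regions were intergenic, and coding sequence held 6.83% and 35.1%. With lists of equal length the difference in repeat share was 3.37 points, in place of 22.1, and its interval, -7.36 to 27.8 points, includes 0.

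The pattern reached beyond perfect repeats. Of the intervals without a tandem repeat, 134 of 278 lost (48.2%, 42.2 to 54.2) and 106 of 547 stayed (19.4%, 16.1 to 22.9) held GACAGA or TCTGTC. For GAGAGA or TCTCTC the shares were 51.8% and 25%. Without a tandem repeat, regions lacking a TKO ESC peak only held the 2 words in 41.5% and 49.2%. Those lacking a WT EB peak only held them in 41.5% and 43.4%, all nearer to the lost than to the stayed shares. These 2 words were in 34.1% and 40.3% of all intervals of the 9 lists, repeats included, and in 63.0% and 66.2% of the lost intervals. CACACA or TGTGTG was in 34.6% of lost, 19.7% of stayed and 25.9% of all intervals. The opposite held for GAAGAA or TTCTTC, in 10.4% (7.58 to 13.8) of lost, 35.7% (31.8 to 39.6) of stayed and 23.0% of all intervals. Regions lacking a TKO ESC peak only were at 13.3% and those lacking a WT EB peak only at 15.6%, again nearer to the lost share. Within introns alone, GAAGAA or TTCTTC was in 10.3% of lost and 27.0% of stayed intervals, and GACAGA or TCTGTC in 54.6% and 19.9%. A word is a description of sequence and names no binding protein.

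**Figure D3:**
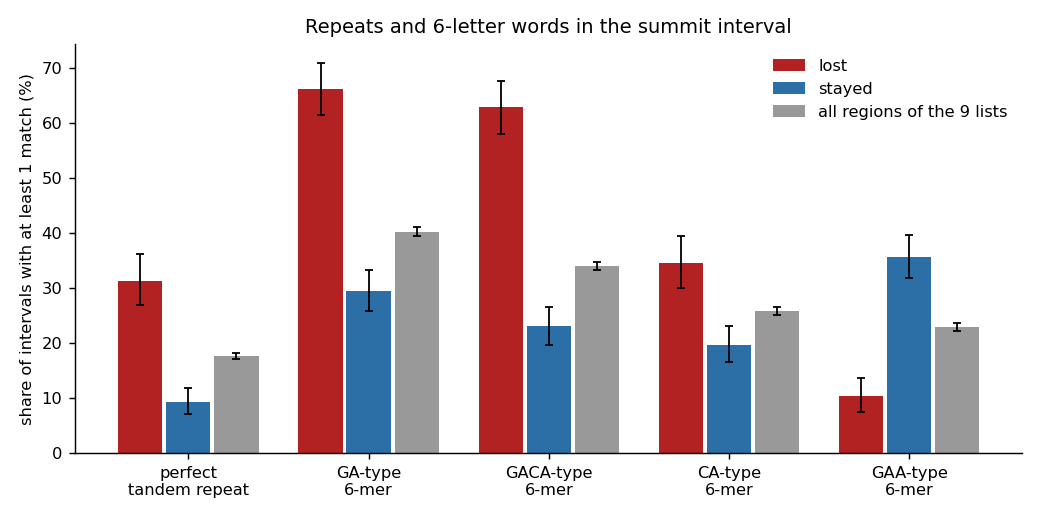
Share of 200 bp intervals that held a perfect tandem repeat or at least 1 match on either strand to each of the 4 words of the preceding text, named here by their repeated unit, in percent, with 95% exact Clopper-Pearson intervals for counting error. Lost regions were above all regions of the 9 lists for the first 4 features and below them for the last, at 10.4%, and stayed regions lay on the other side each time.

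Peaks carry no strand, so the sense of a genic region was taken from the annotation, which could be done for 226 lost and 509 stayed regions. On the gene strand TCTCTC was in 25.2% (19.7 to 31.4) of lost and 3.73% (2.26 to 5.77) of stayed regions. It was in 14.3% of regions lacking a TKO ESC peak only and in 14.1% of those lacking a WT EB peak only. Its complement GAGAGA was in 26.1% of lost and 21.8% of stayed regions, a difference whose interval, -2.21 to 11.3 points, includes 0. Of these words, the sets thus differed more in the pyrimidine sense, of the kind shown for Unc5c. The same asymmetry appeared for TCTGTC (23.5% and 4.32%) and, less so, for GACAGA (23.0% and 14.5%). In the stayed regions GAAGAA was on the gene strand in 36.3% and TTCTTC in 4.72%. In the lost regions these were 8.85% and 2.65%, so the purine word GAAGAA differed by -27.5 points between lost and stayed regions, against 21.5 points for TCTCTC.

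Lost regions spread over a wide range of base composition. Their share of C and T on the gene strand had a median of 43.0%, quartiles of 33.6% and 53.5%, and ran from 10.5% to 93.5%. Stayed regions had a median of 37.5% and quartiles of 31.0% and 43.5%. Intervals with at least 65% C and T made up 43 of 226 lost regions, 19% (14.1 to 24.8), and 8 of 509 stayed regions, 1.57% (0.681 to 3.07). They made up 5.33% of all such regions of the 9 lists. At the purine end, with at most 35% C and T, were 27.4% of the lost and 41.5% of the stayed regions, both above the 21.0% of all such regions of the 9 lists. Within introns these shares were 29.5% and 34.1%, and the interval of that difference, -13.0 to 4.23 points, includes 0. The mean share of C and T was 8.64 points higher in lost than in stayed regions, but 1.45 points lower with lists of equal length. The content of G and C differed little, with medians of 48.0% and 45.5%.

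Lost regions were also weaker within WT ESC. Their median in replicates 1, 2 and 3 was 6.25, 6.07 and 6.21, a mean of 6.18 ± 0.0949 (SD, n = 3). That of the stayed regions was 6.75, 8.64 and 8.66, a mean of 8.01 ± 1.10. Lost regions were the weaker set in each library, by little in replicate 1 and by more in replicates 2 and 3. The mean difference in medians was -1.84, and it was -1.38 without WT ESC replicate 3, where 1 SD either way spans -2.81 to 0.0465 and so includes 0. With lists of equal length it was -6.55, so its size depended on the lists. Against all peaks of their own list, the median lost region stood at the 50.9th, 62.9th and 62.7th percentile, and the median stayed region at the 62.0th, 84.9th and 83.7th. The upper ends differed more than the lower ones. Quartiles of the lost regions in replicate 2 were 4.62 and 7.80, and those of the stayed regions 5.56 and 13.6. The highest lost value in any library was 20.3, and the highest stayed value 61.3. Across the 3 libraries a lost region varied with a median coefficient of variation of 25.3%, and a stayed one of 28.7%.

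**Figure D4:**
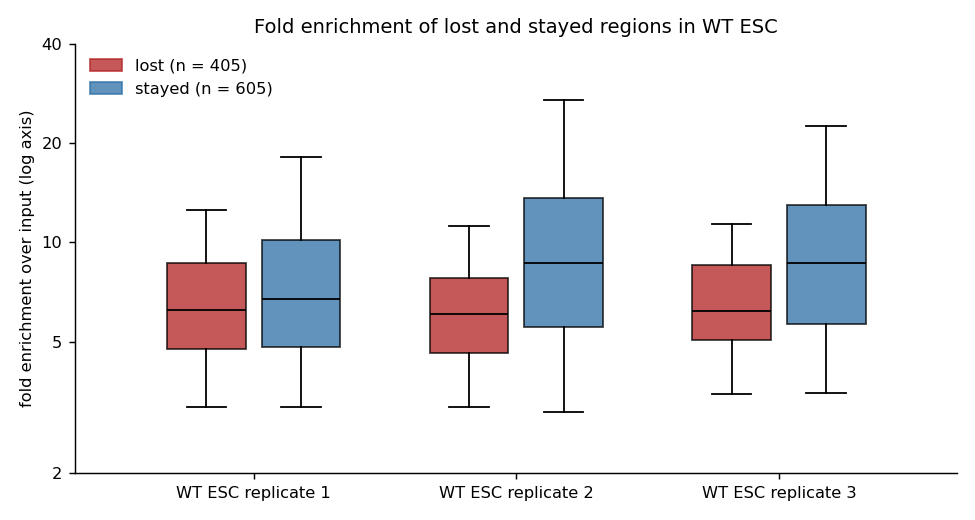
Fold enrichment over input (log axis) of the 405 lost and 605 stayed regions in WT ESC replicates 1, 2 and 3. Boxes show the quartiles with the median as a line and whiskers run from the 5th to the 95th percentile. The lost medians sit between 6.07 and 6.25 and the stayed medians between 6.75 and 8.66.

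The peak caller derives this ratio from a whole-number pileup over a local background, and in the lost regions the same values recurred. The median lost region shared its value, to 5 decimals, with 16, 32 and 30 peaks of the list (itself included) in replicates 1 to 3, and the median stayed region with 3, 2 and 2. Values held by 5 or more peaks made up 72.6%, 78.8% and 79.3% of the lost and 40.8%, 33.1% and 33.9% of the stayed values. What part this has in the absence of a peak elsewhere was not tested. The 2 sets between lost and stayed resembled the lost regions in level: the mean of the library medians was 6.37 ± 0.0555 for regions lacking a WT EB peak only and 6.21 ± 0.443 for those lacking a TKO ESC peak only (SD, n = 3).

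The 4 knock-in lists did not enter the rule, but stayed regions were chosen for peaks in more of the other lists than lost regions. Tet2-KI ESC replicate 1, the longest list with 10383 peaks, had a peak in 250 of 405 lost regions, 61.7%. Tet2-KI ESC replicate 2 (5781 peaks) had one in 20.5%, Tet2dRBD-KI ESC replicate 1 (4639 peaks) in 22.5% and Tet2dRBD-KI ESC replicate 2 (3318 peaks) in 11.1%. Tet2-KI ESC replicate 1 thus stood apart, while Tet2-KI ESC replicate 2 and Tet2dRBD-KI ESC replicate 1 nearly coincided. Of all 1536 regions present in the WT ESC lists, the same 4 lists had a peak in 83.5%, 48.2%, 50.6% and 30.9%. The order of the 4 lists was the same for stayed and for lost regions.

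Stayed regions were present far more often, in 95.7%, 75.5%, 77.5% and 49.4%. The difference between stayed and lost regions was 34.0, 55.0, 55.1 and 38.3 percentage points in the 4 lists, a mean of 45.6 ± 11.1 (SD, n = 4). It was positive in 4 of 4 libraries, with a two-sided exact sign-flip p of 0.125, the smallest that 4 libraries allow. Since stayed regions were chosen for peaks in more lists, the part of this difference that follows from the choice cannot be told apart. The mean difference was similar across levels of WT ESC signal, but its spread over the lists was not. With both sets split at the same values into 3 bins of low, middle and high mean fold enrichment, it was 40.5 ± 5.57, 41.9 ± 10.4 and 39.99 ± 16.4 points (SD, n = 4). In Tet2-KI ESC replicate 1 the stayed and lost shares came closer, from 150 of 163 stayed and 97 of 173 lost regions in the low bin to 272 of 277 and 49 of 60 in the high bin. In each of the other lists they moved apart. In Tet2-KI ESC replicate 2 they went from 63.2% and 18.5% in the low bin to 85.9% and 33.3% in the high bin. The sets were not matched in fold enrichment within a bin, so the part of signal in this difference was not tested. Without repeat-bearing regions the mean difference over the 4 lists was 42.7 points, and among intronic, exonic and intergenic regions it was 44.1, 30.4 and 35.1 points.

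**Figure D5:**
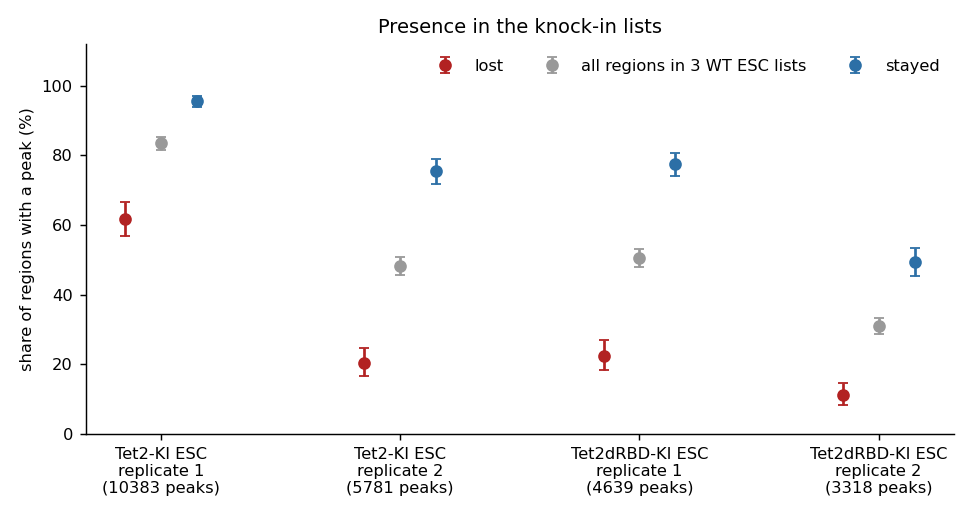
Share of lost regions, of all 1536 regions present in the 3 WT ESC lists and of stayed regions that had a peak in each of the 4 knock-in lists, in percent, with 95% exact Clopper-Pearson intervals for counting error. Lost regions lie below stayed regions in every list, from 61.7% against 95.7% in Tet2-KI ESC replicate 1 to 11.1% against 49.4% in Tet2dRBD-KI ESC replicate 2.

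Between the knock-in groups, lost regions were present in 24.3 points more in Tet2-KI ESC than in Tet2dRBD-KI ESC. The two-sided exact permutation p was 0.667 over 2 against 2 libraries, where 0.333 is the smallest possible, so the difference was not larger than the spread between replicates. It rested on Tet2-KI ESC replicate 1, and without that library it was 3.70 points. Without Tet2-KI ESC replicate 2 it was 44.9 points. For stayed regions the difference between the groups was 22.1 points, of like size (exact permutation p = 0.667).

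The shares in the knock-in lists also differed by kind of region, in the lost regions as in all 1536. Of the 127 lost regions with a tandem repeat, 54.3% had a peak in Tet2-KI ESC replicate 1, but 7.87% in Tet2-KI ESC replicate 2, 6.30% in Tet2dRBD-KI ESC replicate 1 and 0.787% in Tet2dRBD-KI ESC replicate 2. Of the 278 without one, the shares were 65.1%, 26.3%, 29.9% and 15.8%. Exonic lost regions, 44 in number, were spread more evenly, at 56.8%, 38.6%, 50.0% and 36.4%. Intronic lost regions were at 67.6%, 27.6%, 28.1% and 12.4%, and intergenic ones at 56.4%, 6.75%, 7.98% and 2.45%. Over all 1536 regions, those with a tandem repeat were at 76.5%, 18.3%, 22.0% and 6.10%, and intergenic ones at 73.9%, 17.4%, 21.1% and 9.43%. Stayed regions with a repeat were at 94.6%, 39.3%, 53.6% and 16.1%. Lower shares of repeat-bearing regions in the last 3 lists were therefore not particular to the lost regions. Because the replicate 1 list of Tet2-KI ESC was also the longest, its list length and its content in repeats cannot be told apart.

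Patterns over the 4 lists were uneven. Tet2-KI ESC replicate 1 alone had a peak in 151 lost regions, 37.3% (32.6 to 42.2), and in 70 stayed regions, 11.6% (9.13 to 14.4). This pattern was not counted over all 1536 regions. No knock-in list had a peak in 131 lost regions, 32.3% (27.8 to 37.1), against 13 stayed regions, 2.15%, and 12.4% of all 1536. All 4 lists had one in 25 lost regions, 6.17%, against 44.6% of the stayed regions and 25.3% of all 1536. Both Tet2-KI ESC lists and neither Tet2dRBD-KI ESC list had one in 18 lost regions, 4.44%, and this share was 6.12% in stayed regions and 5.79% over all 1536. The reverse pattern, both Tet2dRBD-KI ESC lists and no Tet2-KI ESC list, was seen in 3 lost regions, 0.741%, and in 0.326% of all 1536. A share near that of all 1536 regions is not particular to the lost regions.

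The highest ranking regions with peaks in both Tet2-KI ESC lists alone were introns of Erc1, Bai1, Xab2, Diap3 and Rbm5. Bai1 is an adhesion receptor, Xab2 and Rbm5 are splicing factors, Xab2 also acting in DNA repair, and Diap3 is a formin that builds actin filaments. The Rbm5 summit was 2 bp from a splice site, with fold enrichments of 6.77, 8.09 and 7.55. The 3 regions of the reverse pattern lay in introns of Cux2, a homeobox factor, and of the Ctbp2 and Fgfr2 overlap, and in the coding sequence of Rbm45, an RNA-binding protein. Their mean fold enrichments in WT ESC were 6.34, 6.22 and 5.54.

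Present in all 4 lists were, by rank, Adat1, Pibf1, Tmem201, Pkp4 (a plakophilin of cell junctions) and the noncoding gene Dleu2. With no knock-in peak, the highest ranking were introns of Rora, Abca9, Plxdc2, Bcas3 and Adap1. The Rora region (chr9:68511308-68511532) had 8.84, 12.7 and 8.71 in WT ESC, above the 8.14, 8.59 and 11.6 of Pibf1 in 2 of the 3 replicates. The 3 intergenic regions shown above had a peak in Tet2-KI ESC replicate 1, and the one on chromosome 5 also had peaks in Tet2-KI ESC replicate 2 and Tet2dRBD-KI ESC replicate 1.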

How the data were processed

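The 13 IP libraries were grouped by their sample titles, and inputs entered only through the authors' peak calling. The authors trimmed reads with Trimmomatic, aligned them with STAR to mm9 and ran MACS2 on each IP library with the matching input as control, keeping q-values under 0.05. The deposited lists hold intervals of 200 bp around summits. For 9 lists they add the fold enrichment over input, a ratio that the authors' caller computed, while the 4 knock-in lists hold positions only. Read counts were not used, so depth is unknown.

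Regions, annotation (GENCODE M1 on NCBIM37), sequence and tests were computed with Python 3.11.15, numpy 2.4.6, pandas 2.3.3, scipy 1.17.1 and pysam 0.24.0. A summit in any exon of a coding transcript was exonic, and otherwise intronic within a coding gene. Where genes overlap, the longest was used for introns. Intervals on unplaced contigs had no sequence. Shares carry 95% intervals. Knock-in presence was compared by exact tests over libraries. As a check of the code, 200 of 200 lost regions planted in simulated lists were recovered, which their placement fixed in advance. Of 15000 unplanted regions, placed independently in each list, 56 also met the rule. That count is no estimate for the real lists.

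Regions named were the 20 highest by lowest WT ESC fold enrichment, the 5 highest that were exonic, intergenic, in all 4 knock-in lists, in none, or in 1 knock-in group only, genes with 2 or more, genes of 12 lists, and 5 stayed regions. Sequences were printed for 11 of these, and some regions, gene groups and sequences are not reported here. The members, the lists and the words were chosen with earlier results of these data known.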

Additional observations from a re-analysis of the deposited data

How the results depend on the processing

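Of 140 recomputed differences, 139 kept their direction. Counts and shares of lost regions, which cannot reverse, gave 30 more values. Besides the reversal, 41 of all 170 moved beyond their spread, interval or the margin for counts. The reversal was the share of C and T in genic regions, 8.64 points higher in lost than in stayed regions and -1.45 points with lists of equal length, where 14 lost regions remained. That setting also gave a lost share of 14.9%, an intergenic difference of 8.63 points (-5.51 to 34.5) and a repeat difference of 3.37 points (-7.36 to 27.8), whose intervals include 0. With peaks above the median of their list there were 160 lost regions, 29.0% of the WT ESC regions, and the intergenic difference was 20.9 points. The 1703 libraries gave 1179 lost regions, 39.3%. Leaving out 1 of the 9 libraries gave 423 to 1075 lost regions, shares of 27.5% to 38.1% and repeat differences of 20.3 to 29.0 points. Counting as stayed only the 68 regions in all 9 lists gave 35.8 points for intergenic and 28.4 points for repeats. A repeat of at least 30 nt gave 13.9 points. In 2 settings added after the data were seen, regions without a repeat (with the 2 stayed regions on unplaced contigs, which have no sequence here, counted among them) gave an intergenic difference of 20.2 points and intronic regions a repeat difference of 13.8 points. The median fold enrichment of lost minus stayed regions, -1.84, was -6.55 with lists of equal length, -3.88 above the median of each list and -4.13 against stayed regions in all 9 lists, and -2.16 to -1.38 without 1 library. The cause of these shifts was not tested.

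Replicate numbers pair the knock-in libraries by number only. With a replicate block the difference between Tet2-KI ESC and Tet2dRBD-KI ESC was 24.3 points (39.3 and 9.38 in replicates 1 and 2, exact sign-flip p = 0.5, the smallest that 2 pairs allow). Leaving out a knock-in library gave 3.70 to 44.9 points between the groups and 42.4 to 49.5 points between stayed and lost regions. Peak lists without counts limit all of these values, since a region just under the caller's threshold counts as absent.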
